A study of Homo sapiens with 6 samples.

Results

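The genes described here code for 10 heat shock proteins of the cytosol and the mitochondrion: HSPA1A, HSPA1B, HSPA8, HSPH1, DNAJB1, HSP90AA1, HSP90AB1, HSPB1, HSPD1 and HSPE1. They were chosen by symbol, and each had 1 row among the 61517 genes of the deposited count table. All 10 were among the 14051 genes high enough to test. The libraries came from THP-1, an established human monocytic leukaemia line that the series' design text describes as turned into macrophages. In that text, pyroptosis, a lytic inflammatory cell death, was brought on with lipopolysaccharide (LPS) and ATP in these cells. The 3 control libraries came from such cells without a further drug, and the 3 ruxolitinib libraries from such cells given ruxolitinib, an inhibitor of the kinases JAK1 and JAK2. The treatment field spells the drug "Lukotinib", while the series title has ruxolitinib. The labels name no dose, no exposure time and no agent used to differentiate the cells. Both groups were stimulated, and the comparison has no unstimulated baseline.

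Heat shock proteins are chaperones: they bind unfolded or half-folded proteins and keep them from clumping. HSP70 proteins work in cycles of ATP binding with HSP40 partners, which deliver substrates, and HSP110 proteins, which release the spent nucleotide. HSP90 finishes the folding of signalling proteins, among them several kinases, and HSP60 with its lid HSP10 forms a folding chamber inside mitochondria. Their stress induction runs through HSF1, a transcription factor that binds inverted repeats of GAA, the heat shock element, in the promoters of its targets.

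Promoter sequence near such elements is shown because it marks which of these genes carry the binding pattern of the heat shock factor, so that their shared response or lack of one can be read beside it. RefSeq promoter windows (GRCh38.p14) were found for all 10 genes, some with several start sites, giving 16 windows. The 250 bases before each start were searched on both strands for the heat shock element written as GAANNTTC or TTCNNGAA, 2 patterns that can overlap each other. The capitals mark matches, stretches inside annotated exons are cut to 30 bases, and the sequences run 5′ to 3′ on the strand of the gene.
HSPA1A: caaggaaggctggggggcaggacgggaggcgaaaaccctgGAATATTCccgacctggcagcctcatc
HSPA1B: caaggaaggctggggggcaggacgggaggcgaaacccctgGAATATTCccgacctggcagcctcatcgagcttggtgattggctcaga
DNAJB1: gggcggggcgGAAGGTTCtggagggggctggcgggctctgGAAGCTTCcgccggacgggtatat
HSPA8: ggccccTTCTGGAAGGTTCtaagatagggt
HSP90AA1: gttcgggaggcTTCTGGAAaaagcgccgcg
HSP90AB1: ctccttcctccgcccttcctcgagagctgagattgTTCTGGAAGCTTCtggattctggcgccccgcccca
HSPB1: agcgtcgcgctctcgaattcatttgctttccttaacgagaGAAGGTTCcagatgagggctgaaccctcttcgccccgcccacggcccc
HSPD1: tTTCTGGAAAGTTCTGGAAccgagcgaggc
These stretches lie at chr6:31815397-31815463 (plus strand) for HSPA1A, chr6:31827593-31827680 (plus) for HSPA1B and chr19:14518421-14518484 (minus) for DNAJB1. The others lie at chr11:123062168-123062197 (minus) for HSPA8, chr14:102087094-102087123 (minus) for HSP90AA1, chr6:44247796-44247865 (plus) for HSP90AB1, chr7:76302451-76302538 (plus) for HSPB1 and chr2:197500057-197500086 (minus) for HSPD1.

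The element was present in 8 of the 10 genes, against 14% of the 27305 genes of the promoter table, and in 8 of their 16 windows, against 11.6% of 35116 windows. HSPH1 and HSPE1 had no match in these windows, which says only that these letters are not there. In HSPA1A and HSPA1B the same 8 letters, GAATATTC, begin at -106 and -105 from the start, and both windows also hold a TATA box (TATAAA), as do those of 13% of all genes. HSP90AB1 holds 4 overlapping or neighbouring matches in the window of 1 of its 3 start sites, and HSPA8 holds 4 in its only window. HSP90AA1 holds 3 in the window of 1 of its start sites. The stretches printed above show 2 of the 4 for HSP90AB1, 2 of the 4 for HSPA8 and 1 of the 3 for HSP90AA1. The STAT pattern TTCNNNGAA, the site that JAK-activated STAT factors bind, had no match in any of the 16 windows. It was present in 6.57% of all windows and in 8.09% of all genes. At such low shares, its absence from 16 windows does not set these genes apart. Such letter matches are a description and not a measured site.

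The 6 libraries held 17757595 to 24533979 counts, and the 10 heat shock genes took 0.868% to 0.993% of them. As a check of the label, all 8 monocyte and macrophage markers were detected, with summed levels of 1050 to 1090 CPM (read counts scaled to the library total) in control and 526 to 587 CPM with ruxolitinib. Of these 8, 7 fell and LYZ rose, where 16.1% of all tested genes fell and 13.6% rose. With the batch number as a block 6 fell and none rose, since CD33 (adjusted p = 0.0567) and LYZ (adjusted p = 0.101) no longer passed. The T cell genes CD3D, CD3E and CD3G, 3 of the 4 genes of their list, had 0 counts in all 6 libraries. The B cell list summed to 0.215 to 0.525 CPM and the epithelial and fibroblast list to 0.429 to 1.51 CPM in the 6 libraries. What part the lower macrophage markers have in the results below was not tested. In these bulk libraries, fewer cells of a type and less RNA per cell cannot be told apart.

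With ruxolitinib, 2 of the 10 heat shock genes fell and 8 did not pass the test. HSPB1, the small heat shock protein HSP27, fell by 25.02%, and HSP90AB1, the constitutive HSP90, fell by 10.42%. None of the 10 rose by edgeR's quasi-likelihood test at an adjusted p of 0.05. At an unadjusted p of 0.05 the count that rose was also 0, and it was 0 by DESeq2 and limma-voom. Of all tested genes, 29.7% passed in either direction, 16.1% lower and 13.6% higher. Against that background, 2 of 10 is not a result about heat shock genes as a group. With the batch number as a block, 1 of the 10 passed, against 20.7% of all tested genes. Their median log2 fold change was 0.02 beside -0.01 over all tested genes, and their median size of change was 0.05 beside 0.21. The all-gene values were not matched for level and take in genes at lower levels, whose fold changes are less precise.

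**Figure D1:**
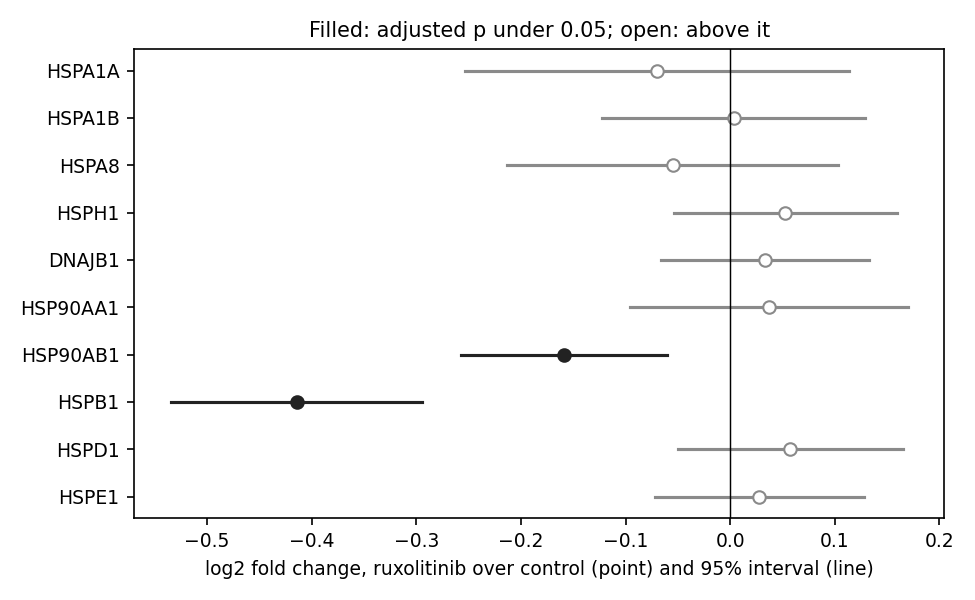
Log2 fold change of each of the 10 genes, ruxolitinib over control (x axis, points) with its 95% interval (lines), from edgeR over 3 libraries per group. Filled points passed an adjusted p of 0.05: only HSPB1 and HSP90AB1 did, both below 0, and the other 8 intervals all span 0.

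HSPB1 (ENSG00000106211; chromosome 7, 76302544 to 76304295 in GENCODE 29 on GRCh38) holds partly unfolded proteins for the ATP-driven chaperones and binds actin. Its levels were 87.5, 83.2 and 81.4 CPM in control libraries 1 to 3 and 66.1, 59.7 and 63.3 CPM in ruxolitinib libraries 1 to 3. Every ruxolitinib library lay below every control library, as was so for 23.8% of all tested genes. Means were 84.0 ± 3.12 CPM and 63.0 ± 3.19 CPM (SD, n = 3 each), and the log2 fold change was -0.41 ± 0.05 (SE, edgeR adjusted p = 0.000138). Within the batches numbered 1, 2 and 3 in the labels, each with 1 library per group, the log2 differences were -0.405, -0.479 and -0.363. HSPB1 passed under all 18 alternative settings.

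Of 8 further genes named in the small heat shock protein series, 6 were too low to test. Among these, CRYAB and HSPB8, classical members of the family, had mean levels of 0.0665 and 0.0290 CPM in control, under the 0.12 to 0.169 CPM that 3 counts make in these libraries. The 2 tested moved in opposite directions, where 13.6% of all tested genes rose and 16.1% fell. HSPB11, which despite its symbol is a subunit of the transport machinery of cilia, fell from 48.2 ± 1.70 to 41.4 ± 1.44 CPM (adjusted p = 0.0126). With the batch as a block, HSPB11 still passed (adjusted p = 0.0459). The call was lost by DESeq2, without control replicate 1, and without the pair of batch 1 or of batch 3. HSPB3, a muscle-type member, rose at a low level, with 1.51 ± 0.228 CPM in control and 3.37 ± 0.270 CPM with the drug, a log2 fold change of 1.15 ± 0.20 (adjusted p = 0.000896).

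The 2 cytosolic HSP90 genes are HSP90AB1, expressed at all times, and HSP90AA1, its stress-responsive partner. HSP90AB1 (ENSG00000096384; chromosome 6, 44246166 to 44253888) was at 2795, 2678 and 2876 CPM in control and at 2536, 2450 and 2494 CPM with ruxolitinib. The groups did not overlap, as in 44.2% of all tested genes counting either direction. Means were 2783 ± 99.1 and 2493 ± 42.7 CPM, and the log2 fold change was -0.16 ± 0.05 (edgeR adjusted p = 0.0196). Within batches 1, 2 and 3 the log2 differences were -0.141, -0.128 and -0.205. The call was lost with the batch as a block (adjusted p = 0.111), and with median-ratio (0.0648) or upper-quartile (0.0623) scaling. Leaving out control replicate 1 (0.132), control replicate 3 (0.190) or ruxolitinib replicate 1 (0.0773) also lost it, as did leaving out the pair of batch 1 (0.239) or of batch 3 (0.165).

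HSP90AA1 (ENSG00000080824; chromosome 14, 102080738 to 102139699) was at 2279, 2162 and 2330 CPM in control and at 2303, 2516 and 2126 CPM with ruxolitinib. The highest and the lowest of the 6 libraries were both ruxolitinib libraries. The log2 fold change was 0.04 ± 0.06 (adjusted p = 0.695), with a 95% interval of -6.44% to 12.5% in level. The ratio of HSP90AA1 to HSP90AB1 is taken within a library and so does not depend on scaling. Its log2 was -0.29, -0.31 and -0.30 in the control libraries and -0.14, 0.04 and -0.23 with ruxolitinib. All 3 ruxolitinib libraries had the higher ratio, by 0.19 on average. The exact two-sided permutation p was 0.1, the smallest that 3 against 3 allows, and 0.4 adjusted over the 4 ratios tested. The ruxolitinib libraries were also more spread (SD 0.14 against 0.0075), and without ruxolitinib replicate 2 the difference was 0.12.

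The HSP70 genes did not pass. HSPA8 (ENSG00000109971; chromosome 11, 123057489 to 123063230), the constitutive HSC70, was at 2163, 2099 and 2381 CPM in control and at 2116, 2334 and 1945 CPM with ruxolitinib. The groups overlapped, and the 95% interval was -13.7% to 7.40% (log2 fold change -0.05 ± 0.07, adjusted p = 0.609). When the pair of batch 2 was left out it was lower by a log2 fold change of -0.16 (adjusted p = 0.0111), and within batches 1, 2 and 3 the log2 differences were -0.032, 0.153 and -0.292.

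HSPA1A and HSPA1B, the strongly heat-inducible HSP70 genes, lie side by side in the class III region of the MHC (chromosome 6, 31815464 to 31817946 and 31827735 to 31830255). HSPA1B (ENSG00000204388) was at 296, 339 and 306 CPM in control and at 321, 298 and 324 CPM with ruxolitinib, overlapping groups with a 95% interval of -8.12% to 9.34%. HSPA1A (ENSG00000204389) was at 22.6, 26.3 and 22.5 CPM in control and at 21.8, 24.4 and 22.1 CPM with ruxolitinib, with an interval of -16.1% to 8.22%. The log2 fold changes were 0.00 ± 0.06 and -0.07 ± 0.08 (adjusted p = 0.974 and 0.580).

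The split between these 2 genes is uncertain. In GENCODE 29, 69.9% of all 100-base windows of the HSPA1A transcript also occur in HSPA1B, and the labels do not say how reads that match both were counted. HSPA1A held 6.36% to 7.59% of the reads of the pair in the 6 libraries. The log2 ratio of HSPA1A to HSPA1B was -3.72 ± 0.04 in the control libraries and -3.79 ± 0.16 in the others (p = 0.4 by an exact two-sided permutation test, 0.8 adjusted over 4 ratios). AL671762.1, a gene known only by a clone name, overlaps HSPA1B on the same strand and had mean levels of 26.5 and 26.1 CPM in the 2 groups. Added together, the pair was at 318, 365 and 328 CPM in control and at 343, 322 and 346 CPM with ruxolitinib. Its mean was 337 ± 24.8 and 337 ± 13.2 CPM (log2 fold change 0.00 ± 0.06, adjusted p = 0.988). The log2 ratio of the pair to HSPA8 was -2.71 ± 0.17 and -2.66 ± 0.19 (exact two-sided permutation p = 0.8, also 0.8 adjusted).

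HSPH1 and DNAJB1 serve HSP70 as nucleotide exchange factor and substrate-delivering partner. HSPH1 (ENSG00000120694; chromosome 13, 31134974 to 31162388) was at 1000, 932 and 988 CPM in control and at 1014, 1052 and 963 CPM with ruxolitinib, with an interval of -3.66% to 11.7%. DNAJB1 (ENSG00000132002; chromosome 19, 14514770 to 14529770) was at 278, 278 and 287 CPM in control and at 281, 301 and 280 CPM with ruxolitinib, with an interval of -4.48% to 9.64%. Both groups overlapped in each gene, with log2 fold changes of 0.05 ± 0.05 and 0.03 ± 0.05 (adjusted p = 0.459 and 0.628).

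The mitochondrial pair HSPD1 (HSP60; ENSG00000144381) and HSPE1 (HSP10; ENSG00000115541) sits head to head on chromosome 2, where the annotated genes overlap on opposite strands (197486581 to 197516737 and 197499994 to 197503457). HSPD1 was at 386, 362 and 390 CPM in control and at 388, 415 and 381 CPM with ruxolitinib. HSPE1 was at 171, 170 and 165 CPM in control and at 170, 179 and 166 CPM with ruxolitinib. In both genes ruxolitinib library 2 was the highest of the 6, and the groups overlapped. The intervals were -3.41% to 12.1% for HSPD1 and -4.88% to 9.26% for HSPE1 (adjusted p = 0.421 and 0.695). The log2 ratio of HSPE1 to HSPD1 reads was -1.17 ± 0.07 and -1.20 ± 0.01 (exact two-sided permutation p = 0.7, 0.8 adjusted over 4 ratios). A read-through gene that shares sequence with HSPE1, HSPE1-MOB4, had mean levels of 14.9 CPM in control and 18.9 CPM in ruxolitinib libraries.

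Levels can be set side by side only per length, here as CPM per kb of annotated exon. On that scale HSP90AB1 was the highest, at 934 ± 33.3 in control, followed by HSPA8 at 457 ± 30.4 and HSP90AA1 at 430 ± 16.4, which did not differ beyond their spread. HSPA1B (124 ± 8.99) and HSPH1 (116 ± 4.33) were likewise within their spread. HSPD1 (89.3 ± 3.56) and HSPE1 (85.3 ± 1.55) came next, with ranges of mean ± SD that overlapped. DNAJB1 was at 76.5 ± 1.52, HSPB1 at 51.4 ± 1.91 and HSPA1A, with the counting limit above, at 9.60 ± 0.870. With ruxolitinib HSP90AA1 (441 ± 37.2) and HSPA8 (440 ± 40.2) changed places within their spread, and the other 8 genes kept their order. Exon lengths take in all annotated transcripts, so genes with long rare isoforms are placed too low. Pseudogenes of these genes had summed levels of at most 0.631% of the parent gene (HSPD1, 18 pseudogene rows).

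**Figure D2:**
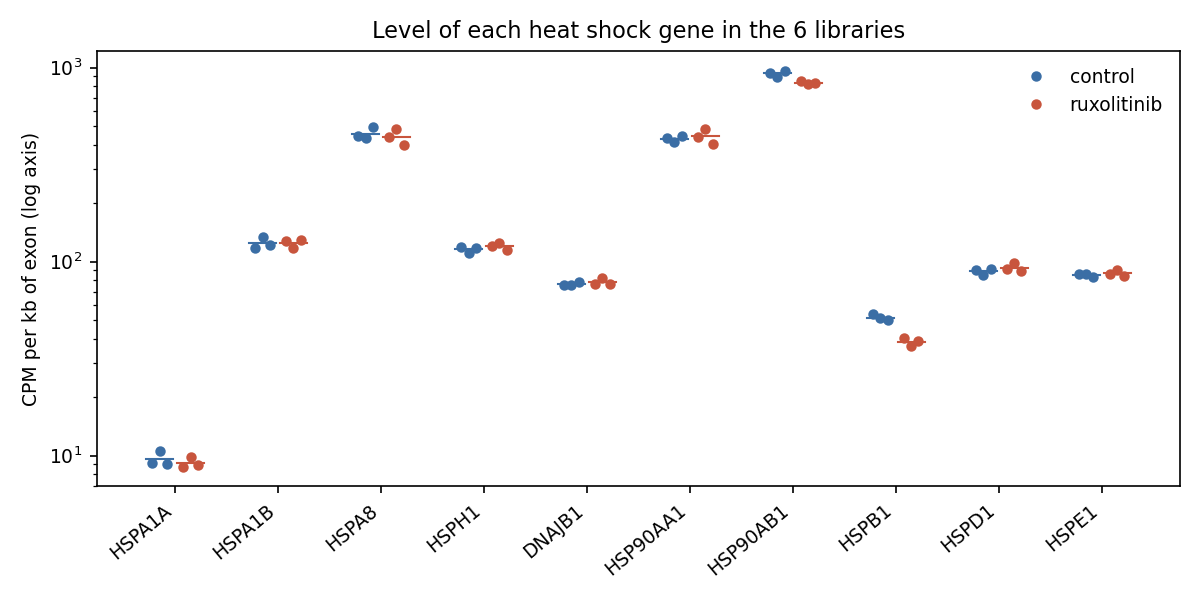
Level of each of the 10 genes as CPM per kb of exon (log axis), 1 point per library with the group mean as a bar, control in blue and ruxolitinib in red. HSP90AB1 leads at 934 in control, HSPA1A is lowest at 9.60, and only HSPB1 and HSP90AB1 show groups that do not overlap.

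In the 8 genes that did not pass, the range within either group exceeded the difference between the group means. Among the ruxolitinib libraries, replicate 2 was the highest for 7 of 10 genes (HSPA1A, HSPA8, HSP90AA1, HSPH1, DNAJB1, HSPD1 and HSPE1), against 37.6% of all tested genes. Replicate 3 was the lowest for 6 of 10, against 36.1%. Of 76 further chaperone genes tested, 47 were highest in ruxolitinib replicate 2 and 46 were lowest in replicate 3. HSPA8 and HSP90AA1 moved most, with replicate 2 above replicate 3 by factors of 1.20 and 1.18. HSPB1, HSP90AB1 and HSPA1B did not follow this order, and each was lowest in ruxolitinib replicate 2. Among the control libraries, replicate 2 was the lowest for 6 of 10 genes, against 35.3% of all tested genes, but the highest for HSPA1A and HSPA1B. Per the labels, control 2 and ruxolitinib 2 share a batch number, and 5 of the 7 genes highest in ruxolitinib 2 were lowest in control 2. No test was made of these orders.

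**Figure D3:**
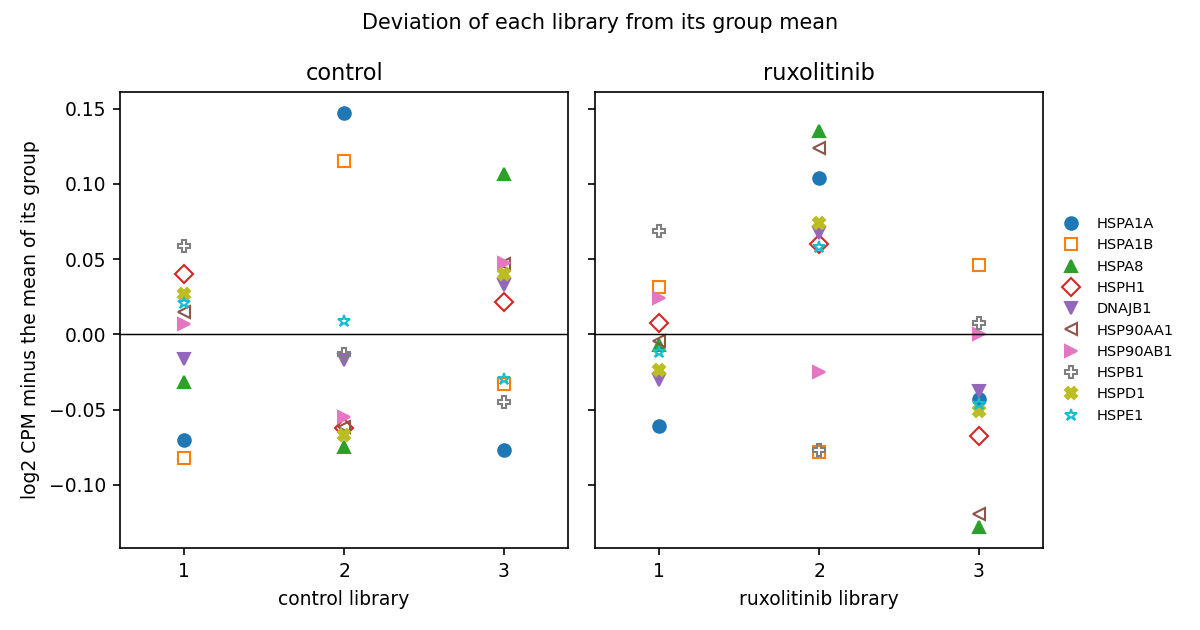
Deviation of each library from the mean of its own group on the log2 CPM scale, control libraries 1 to 3 on the left and ruxolitinib libraries 1 to 3 on the right, 1 marker per gene. In ruxolitinib library 2, 7 of the 10 genes lie highest, and HSPB1, HSP90AB1 and HSPA1B lie below 0.

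A mean was taken over HSPA1A, HSPA1B, DNAJB1 and HSPH1, picked as heat-inducible. HSP90AA1, described above as stress-responsive, and HSPB1, which fell, are not in it. By this mean, the 6 libraries lay between -0.04 and 0.04 of a common level on the log2 scale. Within its group, control library 2 was the highest for HSPA1A and HSPA1B but the lowest for DNAJB1 and HSPH1. Opposite deviations thus partly cancel in this mean. Among 7687 further genes of at least 10 CPM, GGCX (r = 0.999), RPS10-NUDT3 (0.986), KMT5B (0.968), GSR (0.966) and MPG (0.911) had the most similar profile over the 6 libraries (Pearson r, given as a description). All 5 had log2 fold changes that round to 0.01 or less in size. This follows from how they were picked, since the mean they resemble hardly differed between the groups.

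The regulators and partners of these chaperones were described from lists of the wider network. HSF1, the heat shock factor itself, was at 15.1 ± 1.86 CPM in control and 14.8 ± 0.874 with ruxolitinib (log2 fold change -0.03 ± 0.10, adjusted p = 0.838). HSF2, a related factor, rose from 20.8 ± 0.620 to 25.7 ± 2.90 CPM (adjusted p = 0.0193, but 0.0557 with the batch as a block). HSBP1, which binds heat shock factors and dampens them, rose from 121 ± 6.96 to 145 ± 7.76 CPM (adjusted p = 0.00393). HSPA6, an HSP70 gene that is nearly silent without stress, was at 5.41 ± 0.578 and 4.12 ± 0.391 CPM (log2 fold change -0.39 ± 0.15, adjusted p = 0.0652).

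Of 6 further HSP70 and HSP110 genes, 1 rose and 5 did not pass. The one that rose was HSPA13, with 96.9 ± 5.83 CPM in control and 156 ± 8.99 CPM in ruxolitinib libraries (log2 fold change 0.69 ± 0.06), and its protein is found with microsomes rather than in the cytosol. Of 9 further HSP40 genes, 4 rose and 2 fell, or 2 and 2 with the batch as a block. The shares over all tested genes were 13.6% rising and 16.1% falling, or 20.7% in either direction with the block. DNAJC2, a partner of HSP70 at the ribosome, rose from 59.1 ± 1.31 to 82.3 ± 2.05 CPM, and DNAJB6, which suppresses protein aggregation, from 504 ± 23.1 to 614 ± 20.6 CPM. DNAJA4 fell from 130 ± 2.39 to 101 ± 3.27 CPM and DNAJB5 from 82.3 ± 1.91 to 65.8 ± 2.66 CPM.

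Of 8 HSP70 co-chaperones, ST13 (log2 fold change 0.16 ± 0.05) and BAG3 (0.17 ± 0.06) rose and 6 did not pass, and with the batch as a block neither passed (adjusted p = 0.111 and 0.127). Of 11 HSP90 co-chaperones, 2 rose and 1 fell. STIP1, which links HSP70 to HSP90, rose from 640 ± 29.8 to 722 ± 28.0 CPM and FKBP4 from 58.2 ± 2.26 to 65.4 ± 2.21 CPM, and both calls were lost with the block (adjusted p = 0.0980 and 0.114). FKBP5, a co-chaperone of steroid receptors, was at 39.5 ± 3.24 CPM in control and fell to 23.3 ± 1.88 CPM, or -0.76 ± 0.08 on the log2 scale (adjusted p = 2.3e-05). Of 11 mitochondrial chaperones and proteases, 1 rose and 10 did not pass, or 9.09% called against 29.7% of all tested genes. GRPEL1, the exchange factor of mitochondrial HSP70, rose by 0.19 ± 0.05 on the log2 scale (adjusted p = 0.0136, but 0.0680 with the block). Those that did not pass included mitochondrial HSP70 itself, HSPA9, at 412 ± 15.3 and 428 ± 18.4 CPM (adjusted p = 0.411). Mitochondrial HSP90, TRAP1, was another, at 11.1 ± 0.635 and 11.6 ± 1.16 CPM (adjusted p = 0.746).

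Of the 8 subunits of TRiC, the cytosolic chaperonin that folds actin and tubulin, 6 rose and 2 did not pass, with a median log2 fold change of 0.20. CCT8 rose from 388 ± 13.3 to 500 ± 26.3 CPM (adjusted p = 0.000178) and CCT3 from 370 ± 18.1 to 473 ± 20.1 CPM (0.00023). The count fell to 3 with the block, to 3 when control replicate 2 or ruxolitinib replicate 2 was left out, and to 2 when batch 1 was left out. Of the 6 subunits of prefoldin, which hands new chains to TRiC, 4 rose and 2 did not pass (median 0.25), and 2 rose when batch 1 was left out. PFDN5 rose from 174 ± 3.63 to 229 ± 15.7 CPM and VBP1 from 63.1 ± 2.09 to 82.2 ± 7.72 CPM. Both medians were above 0 under all 18 alternative settings, which reuse the same libraries. So were the medians of the HSF, HSP40, co-chaperone and endoplasmic reticulum lists, and that of the other HSP70 and HSP110 genes. Among all tested genes 13.6% rose.

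The endoplasmic reticulum has its own members of the same families. Of 11 such chaperones, 8 rose, CALR fell and 2 did not pass (median 0.25), or 4 rose when batch 1 was left out. Over all tested genes, 13.6% rose and 16.1% fell. CALR went from 1759 ± 27.23 CPM in control to 1226 ± 24.15 CPM with ruxolitinib (edgeR adjusted p = 2.4e-06). HSPA5, the reticulum's HSP70, rose from 1216 ± 39.3 to 1722 ± 7.01 CPM, while HSP90B1, its HSP90, was at 989 ± 38.6 and 1004 ± 21.4 CPM (adjusted p = 0.769). HYOU1, its HSP110, rose from 201 ± 10.5 to 280 ± 19.4 CPM, and HSPH1 in the cytosol did not pass. Whether the 2 compartments differ was not tested.

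**Figure D4:**
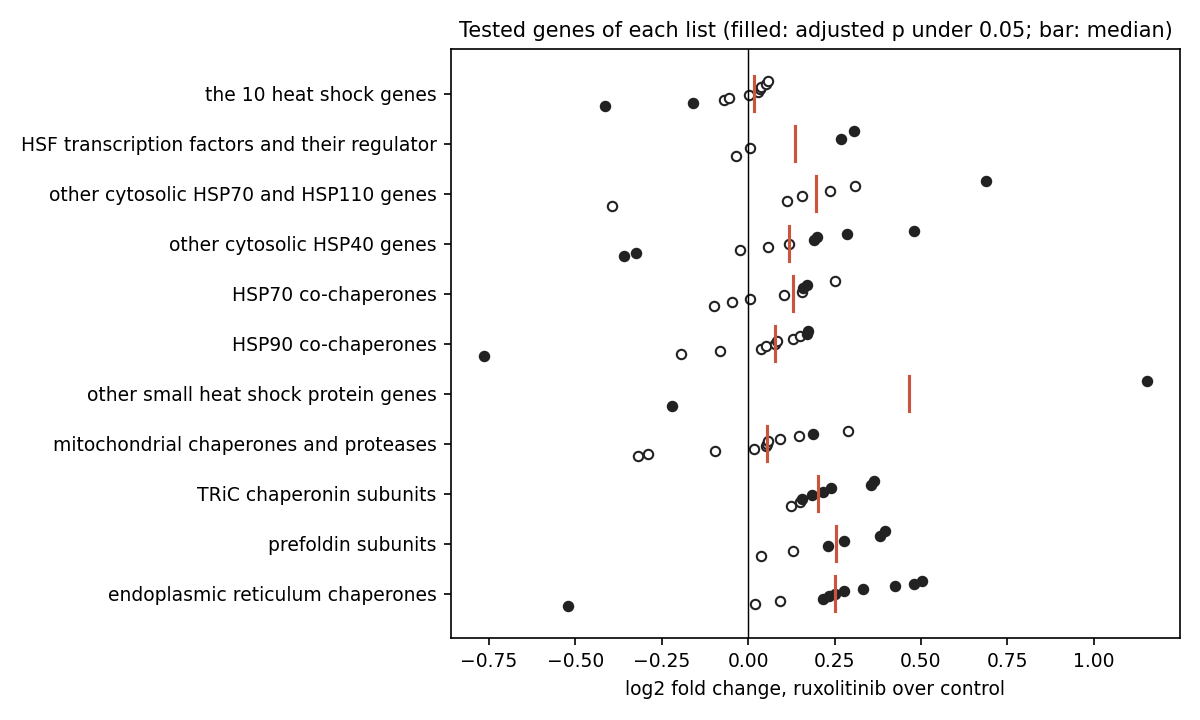
Log2 fold change, ruxolitinib over control, of every tested gene of each chaperone list, with the median of the list as a red bar. Filled points passed an adjusted p of 0.05. The 10 heat shock genes cluster at 0 apart from HSPB1 and HSP90AB1, and the TRiC and prefoldin medians lie at 0.20 and 0.25.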

How the data were processed

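Poly-A RNA of 6 libraries was sequenced per the labels' protocols, and the values deposited are raw read counts for each gene. Per the submitters' processing notes the build was hg38. No aligner, counting program, annotation or strand setting is named. Without strand, overlapping genes cannot be separated. Counts were tested with edgeR 4.0.16 (R 4.3.3) by the robust quasi-likelihood test, with TMM factors, filterByExpr (minimum count 10, minimum total 15), and Benjamini-Hochberg adjustment over 14051 genes at 0.05. Levels are CPM over TMM-scaled totals, mean ± SD over 3 libraries, and 95% intervals come from the SE and the test's degrees of freedom. The script was tested on simulated data. Alternatives used limma 3.58.1 (voom), DESeq2 1.42.0, other scalings, filters and subsets of libraries.

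The 10 genes and all lists were chosen with earlier results of these data known. Named genes are the 10, for each list up to 4 of smallest adjusted p, and the 5 of most similar profile. Of the genes overlapping a member, AL671762.1 and HSPE1-MOB4 are also named above. On the opposite strand, WDR20 overlaps HSP90AA1, TECR and MIR639 overlap DNAJB1, and MOB4 overlaps HSPD1. WDR20, TECR and MOB4 had mean levels of 31.2, 24.0 and 73.9 CPM in control. SNORD14C, SNORD14D and SNORD14E overlap HSPA8 on the same strand and, like MIR639, had mean levels of 0.0 CPM in both groups. HSPA9, TRAP1, HSP90B1, CRYAB and HSPB8 were chosen once values had been seen. Batch numbers 1 to 3 in the labels each cover 1 library per group, so the pairing comes from the labels. Deviations of paired libraries had correlations over genes of -0.02, -0.19 and -0.10. The labels do not state that libraries are separate cultures. The p-values therefore reflect only how these libraries vary, which can be technical variation. Gene positions and exon lengths are from GENCODE 29, and promoters from RefSeq.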

Additional observations from a re-analysis of the deposited data

How the results depend on the processing

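HSPB1 was lower under all 18 alternative settings, with log2 fold changes of -0.45 to -0.38 and adjusted p of 8.3e-10 to 0.00703. Counts of the 10 genes that fell went from 2 to 1, with HSP90AB1 lost, with the batch as a replicate block, with median-ratio or upper-quartile scaling, and when the pair of batch 1 or of batch 3 was left out. The count rose to 3 without both libraries of batch 2, where HSPA8 passed as well (log2 fold change -0.16, adjusted p = 0.0111). Leaving out single libraries gave 1 to 2. Over all genes, 840 rose and 1143 fell without both libraries of batch 1, against 1908 and 2267. The summed HSPA1A and HSPA1B pair had a log2 fold change of -0.0015 and turned positive with the block (0.00051), median-ratio (0.011) and upper-quartile (0.034) scaling, DESeq2 (0.011), without mitochondrially encoded genes (0.0047) and without both libraries of batch 2 (0.092).

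Other sign changes were all of fold changes near 0 that did not pass. With library totals alone they were HSPA1B (-0.033), DNAJB1 (-0.0025) and HSPE1 (-0.0082). Without both libraries of batch 1 it was HSPA1B (-0.054). Without both of batch 2 they were HSP90AA1 (-0.057), HSPH1 (-0.0078), DNAJB1 (-0.0097) and HSPD1 (-0.013), and without both of batch 3 HSPA1B (-0.037) and HSPA8 (0.063). The cause was not tested. Leaving out single libraries gave ranges of -0.032 to 0.054 for the summed pair, -0.12 to 0.0053 for HSPA1A, -0.027 to 0.058 for HSPA1B, -0.12 to 0.014 for HSPA8, -0.026 to 0.096 for HSP90AA1 and -0.00034 to 0.053 for HSPE1. For the ratio differences they were -0.065 to 0.0077 for HSPE1 to HSPD1 and -0.027 to 0.16 for the summed pair to HSPA8. Pairing by batch left the 4 ratio differences as they were, with exact sign-flip p of 0.25 (HSP90AA1 to HSP90AB1), 0.5 (HSPA1A to HSPA1B) and 0.75 for the other two, where 0.25 is the smallest possible. With 3 libraries per group, the 95% intervals of the 8 genes that did not pass set how precisely their changes are known.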
